A study of Rattus norvegicus with 6 samples.

Results

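CD4 T cells of the rat pancreas were taken from 6 single-cell RNA libraries by the transcripts that each barcode held. A barcode was kept with at least 200 detected genes and at most 25% of its UMIs (unique molecular identifiers, 1 per captured transcript) from mitochondrial genes. A kept barcode was counted as a CD4 T cell when Cd3e, Cd3d and Cd3g together had at least 2 UMIs and Cd4 at least 1, with no UMI of Cd8a, Cd8b or Csf1r and at most 1 UMI of the complement genes C1qa, C1qb and C1qc. Of 78024 barcodes, 75981 were kept and 311 were CD4 T cells. The levels of the genes used for this choice are therefore given as descriptions, with no test.

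The libraries came from 6 male Wistar rats in 3 groups of 2. Young rats were 2 months old, old rats were 20 months old after 18 months on a normal diet, and HFHF-old rats were 20 months old after 18 months on a high-fat, high-fructose (HFHF) diet. Islets were isolated by perfusing each pancreas with collagenase P through the bile duct and collecting granules from a density gradient. These were digested to single cells, and each library was made with the 10x Genomics 3' v3.1 chemistry. Shares of kept barcodes are therefore shares of an islet preparation and not of the whole pancreas. One library was made per rat. In comparisons of groups a p-value measures only the spread between these rats, which includes that of cell sampling, digestion and library. In comparisons of kinds of cell within rats it measures the spread of the within-rat differences. The old rats are the reference for both the diet and the age comparison.

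CD4 T cells recognise peptides on MHC class II molecules through the T cell receptor and its CD3 chains, and they direct other immune cells through secreted cytokines and surface ligands such as CD40 ligand. Conventional helper cells are grouped by their lead transcription factor, among them T-bet (Tbx21), GATA3 and BCL6, while regulatory T cells depend on FOXP3 and restrain immune responses. Within an islet-bearing tissue both kinds of cell are known for their part in immune attack on beta cells and in its restraint.

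The 6 libraries held between 7479 and 17504 kept barcodes each, with a median of 2547 to 9824 UMIs per barcode. HFHF-old rat 2 stood apart in its cell makeup, with 8003 of its 11738 kept barcodes in the natural killer (NK) gate. The CD4 T cells of young rats 1 and 2, old rats 1 and 2 and HFHF-old rats 1 and 2 held, in that order, 232604, 141538, 260983, 648744, 135399 and 1091632 UMIs, so the precision of a level was lowest in young rat 2 and HFHF-old rat 1. Values below follow the same order of rats. Levels are CPM, that is UMIs of a gene per 1000000 UMIs of the cells summed within each rat. Of the 311 barcode sequences, 4 (1.29%) also occurred in another library, against 1274 of all 78024 (1.63%), and none was a CD4 T cell in more than 1 library. Doublets were not removed. A simulated-doublet score marked 3, 1, 2, 27, 0 and 7 of the CD4 T cells as likely doublets, that is 40 in all, and the results without them are among the alternatives.

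The numbers of CD4 T cells were 24, 12, 27, 112, 19 and 117. Their share of kept barcodes was 0.137% (95% Clopper-Pearson interval 0.0879 to 0.204) and 0.116% (0.0601 to 0.203) in the young rats, 0.361% (0.238 to 0.525) and 0.682% (0.562 to 0.820) in the old rats, and 0.152% (0.0915 to 0.237) and 0.997% (0.825 to 1.19) in the HFHF-old rats. Both old rats lay above both young rats, while the HFHF-old rats lay on either side of the old rats. Young rats averaged 0.127% ± 0.0148 (SD, n = 2), old rats 0.522% ± 0.227 and HFHF-old rats 0.574% ± 0.597. The old minus young difference was 0.395 percentage points (two-sided exact permutation p = 0.333), and the HFHF-old minus old difference was 0.0528 points (exact permutation p = 1). With 2 rats a group no share can reach a p below 0.333. The diet difference turned to -0.370 points without HFHF-old rat 2 and to -0.108 points without old rat 1. These intervals cover counting error only.

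CD8 T cells, gated in the same way with a UMI of Cd8a or Cd8b and none of Cd4, numbered 111, 51, 347, 1060, 59 and 995. T cells with UMIs of both Cd4 and Cd8 genes were in neither class and numbered 3, 8, 113, 243, 9 and 84. In both old rats they outnumbered the CD4 T cells. T cells with no UMI of Cd4, Cd8a or Cd8b numbered 101, 129, 75, 495, 49 and 292, more than the CD4 T cells of each rat. They can include cells whose Cd4 or Cd8 transcripts were not captured. The shares below leave out both kinds, and the effect of this was not tested. CD4 T cells were 17.8% (11.7 to 25.3) and 19.0% (10.2 to 30.9) of CD4 and CD8 T cells together in young rats. The share was 7.22% (4.81 to 10.3) and 9.56% (7.93 to 11.4) in old rats, and 24.4% (15.3 to 35.4) and 10.5% (8.78 to 12.5) in HFHF-old rats. Both old rats were the lowest of the 6 in the whole gate, but not without the 42 barcodes described below, when young rat 2 had 5.56% and the old rats 6.18% and 8.49%. Young rats averaged 18.4% ± 0.898, old rats 8.39% ± 1.65 and HFHF-old rats 17.4% ± 9.78 (SD, n = 2). Neither the fall of 10.0 points from young to old nor the difference of 9.05 points from old to HFHF-old could pass the exact permutation test (p = 0.333 for both, the smallest p possible). When every cell was thinned to 1000 UMIs before gating, the old minus young difference was 3.20 points, with the opposite sign, but young rats 1 and 2 then had only 1 and 0 CD4 T cells, beside 37 and 9 CD8 T cells.

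**Figure D1:**
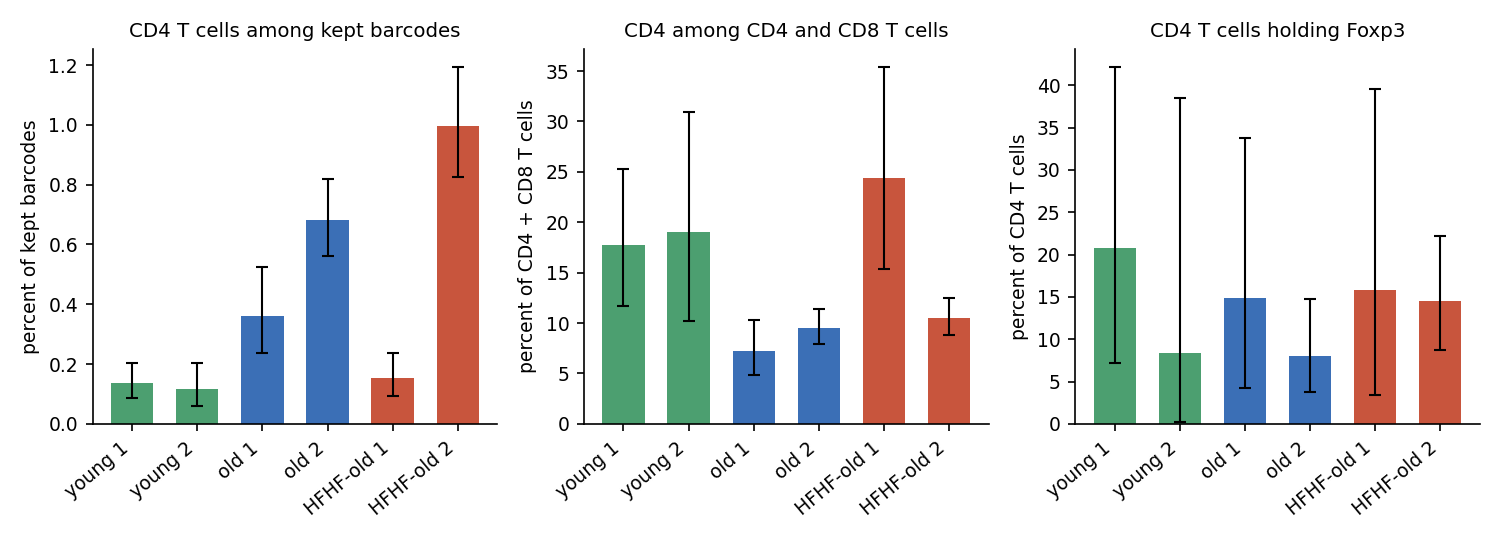
Shares of CD4 T cells among kept barcodes (left), among CD4 and CD8 T cells (middle) and the share of CD4 T cells with a Foxp3 UMI (right), in percent on axes that start at 0, for each of the 6 rats with 95% Clopper-Pearson intervals. The old rats (0.361% and 0.682%) exceed the young rats (0.137% and 0.116%) in the left panel, and in the middle panel they are the lowest at 7.22% and 9.56%, an order that young rat 2 (5.56%) breaks when barcodes with Siglech, Flt3 or Spib are left out.

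At the edges of the gate, 23 of the 311 cells had exactly 2 UMIs of the 3 CD3 genes and 193 had exactly 1 UMI of Cd4. A further 49 kept barcodes met every other condition with 1 CD3 UMI. Cd3e was found in 257 of the 311 cells, Cd3d in 253 and Cd3g in 297. Cd3e had 469, 106, 398, 392, 532 and 519 CPM, and Cd4 had 258, 268, 299, 259, 229 and 193 CPM. Cd4 was within a narrow range in the 6 rats, while Cd3e was lowest in young rat 2.

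The label was checked against helper markers that the gate did not use. Cd40lg, which encodes the CD40 ligand of helper cells, was detected in 184 cells (59.2%), and Icos, an inducible co-stimulatory receptor, in 170 (54.7%). Either of them was found in 237 cells, that is in 17, 3, 19, 75, 17 and 106 of the rats' cells. Both transcripts were also found in CD8 T cells, with Cd40lg in 33.2% and Icos in 31.6% of 2623, and in 0.318% and 0.557% of 3773 epithelial barcodes (a UMI of Epcam and none of Ptprc or the CD3 genes). After thinning to 1000 UMIs the expected shares were 23.2% and 27.0% in CD4 T cells against 13.1% and 11.5% in CD8 T cells, so these genes do not set the CD4 T cells apart on their own. Moreover, 42 of the 311 barcodes held a UMI of Siglech, Flt3 or Spib, which encode a sialic acid-binding lectin, a growth factor receptor of blood cell precursors and dendritic cells and an Ets factor of B and dendritic cells. They numbered 5, 9, 5, 19, 1 and 3, which was 20.8%, 75.0%, 18.5%, 17.0%, 5.26% and 2.56% of each rat's cells, so that most of the cells of young rat 2 were of this kind. These 3 genes were chosen after their values were seen, and the comparison of the 42 with the remaining 269 barcodes is a description.

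In the 42 barcodes Cd3g was detected in 97.6% but Cd3e in 19.0%, against 95.2% and 92.6% of the other 269. Trbc2, a T cell receptor constant segment, was found in 14.3% against 81.8%, Lat, an adaptor below the receptor, in 35.7% against 75.5%, and Cd28 in 19.0% against 78.8%. Cd40lg was found in 14.3% against 66.2%, Icos in 11.9% against 61.3%, and Tcf7 in none against 45.0%. Tcf4, a basic helix-loop-helix factor, went the other way with 95.2% against 8.18%. As a set these barcodes therefore went against the label in their T cell receptor genes and 31 of them held neither Cd3e nor Cd3d. Their median UMI count was 17964, 12448, 16302, 10731, 18833 and 15073 in the 6 rats, above the 6041, 11039, 7305, 3754, 6406.5 and 7877 of the others. Results are given for the whole gate and, where stated, without these 42 barcodes.

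**Figure D2:**
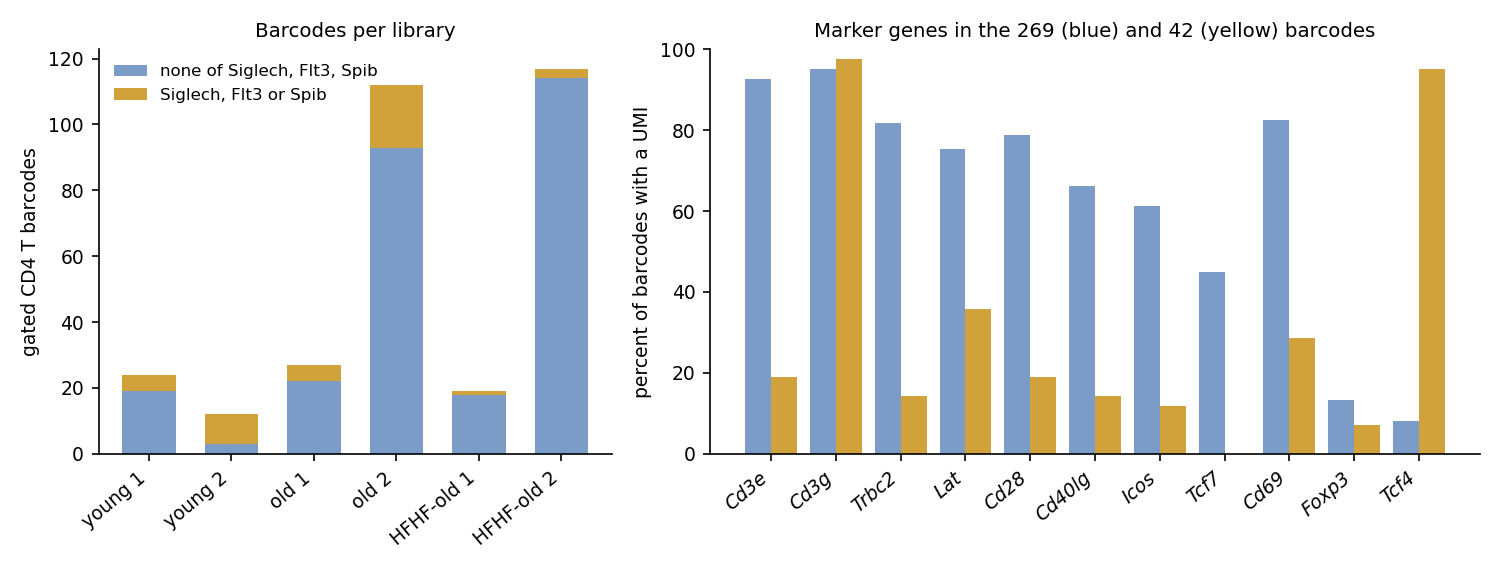
Left, number of barcodes in the CD4 T gate per rat, split into those with a UMI of Siglech, Flt3 or Spib and those without. Right, percent of each set with at least 1 UMI of 11 genes: the 42 barcodes are high in Tcf4 (95.2%) and low in Cd3e (19.0%), the 269 others low in Tcf4 (8.18%) and high in Cd3e (92.6%).

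Without the 42 barcodes the cells numbered 19, 3, 22, 93, 18 and 114. The differences in the share of kept barcodes were then 0.361 points for old minus young (exact permutation p = 0.333) and 0.127 points for HFHF-old minus old (p = 1). The CD4 share of CD4 and CD8 T cells differed by -2.98 points between old and young (exact permutation p = 1) and by 9.85 points between HFHF-old and old (p = 0.333).

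Among the 269 other CD4 T cells, of which 207 came from old rat 2 and HFHF-old rat 2, Gata3 was detected in 137 cells (50.9%), Tbx21 in 102 (37.9%) and Bcl6 in 73 (27.1%). Gata3 was found in 10 of 19, 1 of 3, 12 of 22, 27 of 93, 10 of 18 and 77 of 114 cells of the 6 rats, so its share was lowest in old rat 2 and highest in HFHF-old rat 2. Ifng, encoding interferon gamma, was found in 62 cells (23%), Il21 in 18 (6.69%), Il4 in 7 (2.60%) and Il17a in 2 (0.743%). Ifng was detected in 1, 0, 6, 18, 7 and 30 cells of the 6 rats, and so in more cells than Il4, Il17a or Il21 in the old and HFHF-old rats but not in the young rats. As a background, 3773 kept barcodes with a UMI of the epithelial gene Epcam and none of Ptprc or the CD3 genes held Gata3 in 1.99%, Tbx21 in 1.70%, Bcl6 in 7.53% and Ifng in 0.106%. After thinning to 1000 UMIs the expected shares were 14.7%, 11.6%, 5.32% and 6.48% in the CD4 T cells against 0.260%, 0.295%, 0.740% and 0.00755% in the Epcam barcodes. In CD8 T cells the thinned shares were 8.20%, 18.8%, 5.67% and 13.3%. Of these genes only Gata3 was thus higher in the CD4 T cells than in CD8 T cells. HFHF-old rat 2 held 114 of the 269 CD4 T cells but only 17 of the Epcam barcodes, of which Gata3, Bcl6 and Ifng were each in 1 (5.88%), so the pooled background says little of that rat. This background was chosen after the data were seen, doublets were kept in it, and its median UMI count was 11813, 10771, 12900, 11344, 19830 and 5529 in the 6 rats, against 6041, 11039, 7305, 3754, 6406.5 and 7877 in the 269 CD4 T cells. Cd69 and Rgs1, genes of recently stimulated and tissue-held T cells, were detected in 234 and 255 of the 311 cells, while Ccr7, the lymph node homing receptor, was found in 3.72% of the 269 and the proliferation marker Mki67 in 8.18%.

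Foxp3 was detected in 5, 1, 4, 9, 3 and 17 CD4 T cells, 39 in all. The share was 20.8% (7.13 to 42.2) and 8.33% (0.211 to 38.5) in young rats, 14.8% (4.19 to 33.7) and 8.04% (3.74 to 14.7) in old rats and 15.8% (3.38 to 39.6) and 14.5% (8.70 to 22.2) in HFHF-old rats. The intervals of all 6 rats overlapped. Young rats averaged 14.6% ± 8.84, old rats 11.4% ± 4.79 and HFHF-old rats 15.2% ± 0.891 (SD, n = 2). The HFHF-old minus old difference was 3.73 points and the old minus young difference was -3.16 points (exact permutation p = 0.667 for both). Without the 42 barcodes these differences were -0.380 points (p = 1) and -13.8 points (exact permutation p = 0.333), so the direction of the diet difference turned. Young rat 2 then had a share of 33.3% from 1 of 3 cells. HFHF-old rat 1 lost 1 barcode, which held Foxp3, Cd3e, Cd40lg and Icos, and its share became 11.1%. With a UMI of Cd3e or Cd3d required instead, the diet difference was 1.80 points and did not turn. The old minus young difference also turned, to 3.09 points without young rat 1 and to 1.02 points without likely doublets.

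In the same libraries Foxp3 was found in 7 of 2623 CD8 T cells (0.267%), 50 of 12221 NK cells (0.409%) and 1 of 404 B cells (0.248%). The median UMI count of CD4 T cells was 7292, 11744, 8311, 4172.5, 6543 and 7931, and that of CD8 T cells 5955, 7745, 7707, 3062.5, 6329 and 8165. After thinning each cell to 1000 UMIs (2 CD4 T cells of old rat 2 were shallower and left out) the expected share with Foxp3 was 7.06%, 0.977%, 4.92%, 3.08%, 5.86% and 5.68% in CD4 T cells, against at most 0.119% in CD8 T cells of any rat. The share in CD4 T cells was thus above the level in cells that should lack the gene at equal depth in each rat, from a single cell in young rat 2. In CPM, Foxp3 had 77.4, 14.1, 46.0, 24.7, 103 and 78.8 in CD4 T cells and 0, 2.00, 0, 2.27, 0 and 0.640 in CD8 T cells.

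Foxp3-holding cells were compared with the other CD4 T cells within young rat 1, old rat 2 and HFHF-old rat 2, the 3 rats with at least 5 cells of both kinds. Of 3036 genes tested with edgeR's quasi-likelihood test with the rat as a block, 94 (3.1%) passed a Benjamini-Hochberg adjusted p under 0.05 with a change over 1.5-fold, 52 (1.71%) higher and 42 (1.38%) lower in Foxp3-holding cells. Without the 42 Siglech, Flt3 or Spib barcodes only old rat 2 and HFHF-old rat 2 could be used, and 90 of 4574 genes passed (1.97%). Leaving out old rat 2 from the whole gate left 2 genes, Tnfrsf9 and Ikzf2 (adjusted p = 0.0352 for both), so the other genes passed the threshold only with that rat included. The size of the difference in each rat is given by the CPM values that follow. Young rat 1 had only 5 Foxp3-holding cells.

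Genes known from regulatory T cells were among those higher in Foxp3-holding cells. Of the 17 genes of the regulatory T list in the table other than Foxp3, 9 passed the low-count filter, and 7 of these were called higher, against 1.71% of all genes. A gene could pass this filter through the kind of cell in which it was high, so the counts of list genes in this comparison and in that with CD8 T cells describe the tested genes and not the whole list. Tnfrsf9, encoding the co-stimulatory receptor 4-1BB, had 1094, 205 and 790.3 CPM in Foxp3-holding cells of young rat 1, old rat 2 and HFHF-old rat 2 and 23.6, 10.2 and 14.9 CPM in the other cells (log2 fold change 5.28, SE 0.389, edgeR adjusted p = 0.00012). Ikzf2, which encodes the zinc finger factor Helios, had 2537, 1619.6 and 2646 CPM against 330.3, 79.6 and 263 CPM (log2 fold change 3.47, SE 0.263, edgeR adjusted p = 0.00012). The 2 kinds of cell did not overlap in either gene.

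The OX40 receptor gene Tnfrsf4 had 301, 222 and 429 CPM against 17.7, 8.47 and 3.18 CPM (log2 fold change 5.44, SE 0.533, edgeR adjusted p = 0.00041). Tnfrsf18, encoding the related receptor GITR, had 254, 307 and 328 CPM against 47.2, 27.1 and 43.5 CPM (log2 fold change 2.93, SE 0.318), and Itgb8, the integrin beta 8 chain that releases active TGF-beta, had 888, 426 and 643 CPM against 94.4, 5.08 and 26.5 CPM (log2 fold change 4.42). All 3 genes were higher in Foxp3-holding cells of each rat. Ctla4, the inhibitory receptor of the CD28 family, had 523, 324 and 516 CPM against 189, 84.7 and 227 CPM (log2 fold change 1.45, SE 0.269, edgeR adjusted p = 0.0177), and its adjusted p was 0.0884 without the 42 barcodes.

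Of the 10 genes of the Th2 list only Il1rl1 and Gata3 were tested, and both were higher. Il1rl1, the receptor of interleukin 33, had 1078, 409 and 422 CPM against 53.1, 28.8 and 27.6 CPM (log2 fold change 3.96, edgeR adjusted p = 0.00012). Gata3 had 634, 341 and 676 CPM against 100.3, 57.6 and 131 CPM (log2 fold change 2.47, SE 0.271, edgeR adjusted p = 0.00065), and it was detected in 33 of the 39 Foxp3-holding cells. Icos was higher as well, with 951, 921 and 1487 CPM against 236, 217 and 454 CPM (log2 fold change 1.88, edgeR adjusted p = 0.0013). Il1rl1, Gata3 and Icos were each higher in every one of the 3 rats. Tox, an HMG-box nuclear factor, rose with a log2 fold change of 2.43, and Neb, which encodes the muscle filament protein nebulin, with 6.40.

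In the opposite direction, Cd40lg had 15.9, 85.2 and 67.0 CPM in Foxp3-holding cells and 212, 217 and 457 CPM in the other cells (log2 fold change -2.49, SE 0.408, edgeR adjusted p = 0.0078). Tbx21 had 0, 0 and 40.2 CPM against 100.3, 99.98 and 209 CPM (log2 fold change -2.96, SE 0.592, edgeR adjusted p = 0.0248), and Foxp3 and Tbx21 were found together in 3 cells, all from HFHF-old rat 2. Ccl5, a chemokine of effector T cells, had 31.7, 17.0 and 40.2 CPM against 112, 632 and 416 CPM (log2 fold change -3.57, SE 0.492), and Ctsw, a protease of cytotoxic lymphocytes, also fell by 3.97 on the log2 scale. All 4 genes were lower in Foxp3-holding cells of each rat. Of the 6 tested genes of the Th1 list, 2 were called lower and none higher, against 1.38% of all genes called lower. By direction alone 5 lay lower and 1 higher. Without the 42 barcodes 6 of 10 were called lower, against 38 of all 4574 genes. Gcg, the glucagon gene of islet alpha cells, was also called lower (log2 fold change -3.36, edgeR adjusted p = 0.0463), and all 3 tested islet hormone genes and 5 of 5 digestive enzyme genes lay lower in Foxp3-holding cells. The part of this RNA in the other differences was not tested.

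Several other genes called lower in Foxp3-holding cells, among them Tcf4, Blnk, Irf8 and Bcl11a, did not pass the low-count filter once the 42 Siglech, Flt3 or Spib barcodes were left out and so were not tested without them. Without those barcodes further genes passed the low-count filter and the test: Lrrc32, which anchors latent TGF-beta on regulatory T cells, was higher (log2 fold change 4.75, edgeR adjusted p = 0.0148), and Ccl4 was lower (log2 fold change -3.61, edgeR adjusted p = 0.0020), as were Mki67 and Top2a, genes of dividing cells. In the whole gate the T cell receptor complex list had no call among its 9 tested genes outside the gate, with a median log2 fold change of -0.06 (-0.16 without the 42 barcodes). The NF-kB list had no call either, with all 11 tested genes above 0 on the log2 scale (median 1.02), while without the 42 barcodes 11 of 13 were above 0 (median 0.49) and Cd83 was called higher. The median UMI count of Foxp3-holding cells was 7432, 5141 and 8048 in the 3 rats and that of the other cells 6041, 4163 and 7877.

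**Figure D3:**
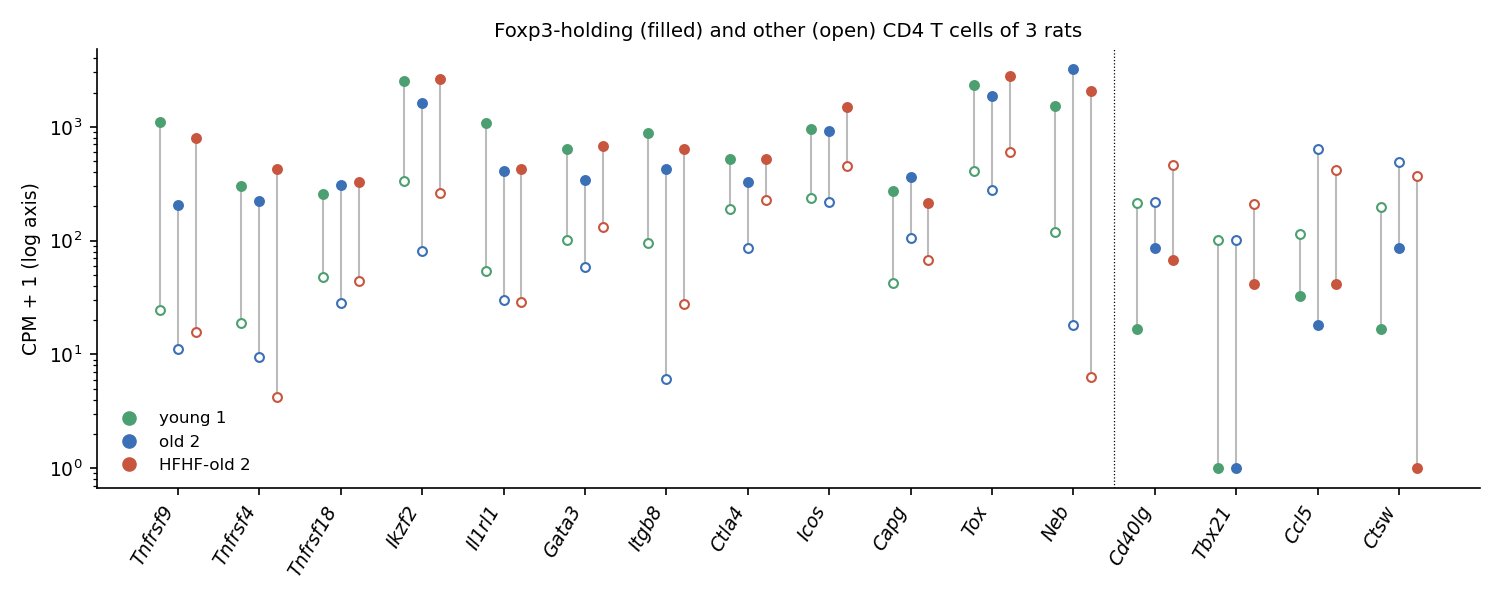
CPM (log10 axis, CPM + 1) of 16 genes in Foxp3-holding (filled) and other (open) CD4 T cells of young rat 1, old rat 2 and HFHF-old rat 2, each point being the summed UMIs of 1 rat. Filled points lie above open points for Tnfrsf9, Ikzf2, Il1rl1 and Gata3 and below them for Cd40lg, Tbx21 and Ccl5.

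The DNA before the start of 2 of the genes higher in Foxp3-holding cells is shown because one, Ctla4, is a textbook FOXP3 target and the other, Prdm1, was the only one whose promoter window held the forkhead motif (Prdm1 encodes BLIMP-1 and had a log2 fold change of 1.47, edgeR adjusted p = 0.0480, and 0.0915 without the 42 barcodes). Both are the 250 bases before the RefSeq start in assembly GRCr8, printed 5' to 3' on the gene's strand. Capitals mark the forkhead motif (TGTTTAC, or GTAAACA on the other strand), the AP-1 motif TGANTCA and the E-box CAGGTG. Ctla4 lies on the plus strand at chr9:69813171-69813420 and Prdm1 on the minus strand at chr20:49564089-49564338.
Ctla4: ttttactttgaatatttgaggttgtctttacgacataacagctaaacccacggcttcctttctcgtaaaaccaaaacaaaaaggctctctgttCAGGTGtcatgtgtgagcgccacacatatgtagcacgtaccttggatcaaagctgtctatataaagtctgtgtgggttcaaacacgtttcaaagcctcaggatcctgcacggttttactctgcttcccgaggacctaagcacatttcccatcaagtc
Prdm1: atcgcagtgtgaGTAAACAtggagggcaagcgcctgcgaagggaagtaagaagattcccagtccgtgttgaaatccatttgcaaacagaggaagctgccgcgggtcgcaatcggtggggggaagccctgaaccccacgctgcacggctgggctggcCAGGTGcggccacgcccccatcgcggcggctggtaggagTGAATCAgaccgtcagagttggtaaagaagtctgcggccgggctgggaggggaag

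Among 27457 RefSeq promoter windows of 300 bases (250 before and 50 after the start, both strands searched), the forkhead motif was found in 1033 (3.76%), the AP-1 motif in 2012 (7.33%) and the E-box in 5121 (18.7%). Of the genes higher in Foxp3-holding cells, 41 had such a window. The forkhead and AP-1 motifs were each found in 1 of them, Prdm1, and the E-box in 12, among them Ctla4, Cd9, Hif1a, Neb and Prdm1. These matches describe letters in the window only.

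CD4 T cells were next compared with CD8 T cells of the same rats, with the rat as a block and all 6 rats. Of 6563 genes tested with edgeR, 324 (4.94%) differed, 183 (2.79%) higher and 141 (2.15%) lower in CD4 T cells. With the 42 barcodes left out, 225 of 6628 genes differed (3.39%), from 5 rats because young rat 2 then had too few cells. In the whole gate the number was 150 without old rat 1, 198 without young rat 1 and 200 without old rat 2. Rat NK cells can carry CD8 alpha, and the CD8 gate did not remove them. The 11 genes of the NK list summed to between 318 and 5264 CPM in CD4 T cells and between 1039 and 4778 CPM in CD8 T cells. With the 42 barcodes left out it summed to between 29.8 and 430.4 CPM in CD4 T cells, below each rat's CD8 T cells.

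The receptor genes Cd28, Ctla4 and Icos were higher in CD4 T cells. Cd28 had 249, 91.8, 353, 268, 1189 and 1038 CPM in CD4 T cells and 106, 23.9, 100.2, 82.1, 486 and 342 CPM in CD8 T cells (log2 fold change 1.52, SE 0.132, edgeR adjusted p = 0.00019). Ctla4 had 279, 28.3, 126, 106, 487 and 267 CPM against 34.0, 2.00, 1.73, 11.4, 21.1 and 29.1 CPM (log2 fold change 3.62, SE 0.339, edgeR adjusted p = 0.00028), and Icos had 429.9, 70.7, 318, 281, 355 and 595 CPM against 75.5, 39.9, 126, 99.9, 291 and 251 CPM (log2 fold change 1.28, edgeR adjusted p = 0.0112, and 0.0518 without old rat 1). Each of the 3 genes was higher in the CD4 T cells of every rat.

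Il6r, the interleukin 6 receptor, had 193, 148, 184, 180.3, 266 and 179 CPM in CD4 T cells and 31.4, 5.99, 37.5, 56.8, 55.5 and 29.99 CPM in CD8 T cells (log2 fold change 2.35, SE 0.251, edgeR adjusted p = 0.00068). Nrp1, a semaphorin and VEGF co-receptor also carried by regulatory T cells, had 198, 191, 222, 92.5, 44.3 and 90.7 CPM against 8.80, 29.9, 20.8, 18.0, 5.28 and 9.39 CPM (log2 fold change 3.09, SE 0.256, edgeR adjusted p = 0.00019). Both genes stayed higher without the 42 barcodes, with log2 fold changes of 2.68 for Il6r and 2.88 for Nrp1. The regulatory T list had 3 of 7 tested genes called higher in CD4 T cells (Ctla4, Ikzf2 and Capg) and 1 called lower (Nt5e). Over all genes these shares were 2.79% and 2.15%. The list's median log2 fold change was 1.42 against -0.01 over all genes tested. With the 42 barcodes left out, 9 of its 12 tested genes were called higher, now with Foxp3, Tnfrsf4, Tnfrsf9, Tnfrsf18, Itgb8 and Tigit (median 2.05). Over all genes 107 of 6628 were called higher in that fit.

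The helper list had 2 of 7 genes called higher (Cd28 and Icos) and 1 called lower (Il2), against 2.79% and 2.15% of all genes. Without the 42 barcodes Maf and Tnfrsf4 were called higher too. Il2, the T cell growth factor, had 12.9, 0, 3.83, 21.6, 7.39 and 7.33 CPM in CD4 T cells and 27.7, 2.00, 38.1, 26.8, 21.1 and 61.2 CPM in CD8 T cells (log2 fold change -1.82, edgeR adjusted p = 0.0361, and 0.118 without old rat 1). Its level was low in both kinds of cell and lower in the CD4 T cells of each rat. Cd40lg, chosen as a marker of these cells, had 159, 49.5, 176, 205, 199 and 404 CPM in CD4 T cells and 18.9, 11.97, 159.9, 164, 119 and 149.9 CPM in CD8 T cells (log2 fold change 1.01, edgeR adjusted p = 0.121). It was higher in the CD4 T cells of each rat, by little in the old rats.

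Genes of killing and of chemokine release were lower in CD4 T cells. Of 8 tested genes of the cytotoxic list, all lay lower and 7 were called lower, against 2.15% of all genes called lower. The list's median log2 fold change was -2.82 against -0.01 over all genes tested. Without the 42 barcodes 7 of 8 were called lower, against 118 of all 6628 genes, with a median of -2.21. Prf1, encoding perforin, had 21.5, 0, 7.66, 12.3, 36.9 and 55.0 CPM in CD4 T cells and 143, 417, 79.8, 94.3, 211 and 211 CPM in CD8 T cells (log2 fold change -2.83, SE 0.362, edgeR adjusted p = 0.0018). Nkg7, a protein of cytotoxic granules, had 17.2, 0, 11.5, 21.6, 0 and 72.4 CPM against 397, 806, 156, 342, 193 and 461 CPM (log2 fold change -3.96, SE 0.420, edgeR adjusted p = 0.00066). In both genes the highest CD4 value lay below the lowest CD8 value.

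The chemokine gene Ccl5 had 90.3, 7.07, 157, 576, 111 and 365 CPM in CD4 T cells and 7189, 4991, 4329, 4274, 2679 and 3699 CPM in CD8 T cells (log2 fold change -4.70, SE 0.558, edgeR adjusted p = 0.0012). Ccl3 fell by 4.16, Ccl4 by 4.41 and Xcl1 by 3.29 on the log2 scale, and the NK receptor gene Ly49s6 by 6.36. Ly49 genes are a family of close copies, so reads may be shared among them. Itgae, the integrin chain that binds E-cadherin on epithelium, had 8.60, 42.4, 30.7, 73.99, 44.3 and 33.9 CPM against 135, 188, 302, 152, 254 and 252 CPM (log2 fold change -2.47, SE 0.289, edgeR adjusted p = 0.0011). The 2 classes did not overlap in Ccl5 or Itgae. Of the Th1 list 8 of 10 genes lay lower in CD4 T cells and 6 were called lower, against 2.15% of all genes called lower. Among the 6 were Tbx21 (log2 fold change -1.44, edgeR adjusted p = 0.0445, and 0.141 without old rat 1) and Ifng (log2 fold change -1.71, edgeR adjusted p = 0.0157, and 0.0773 without old rat 1).

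**Figure D4:**
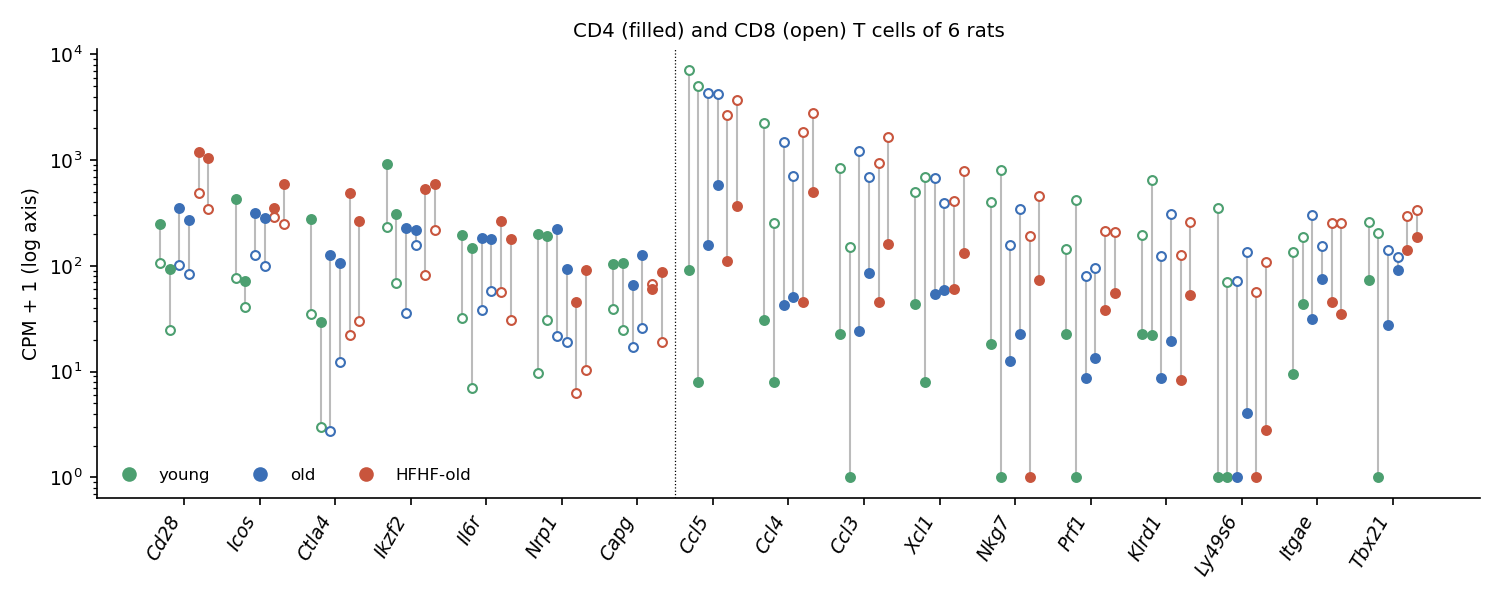
CPM (log10 axis, CPM + 1) of 17 genes in CD4 T cells (filled) and CD8 T cells (open) of the same 6 rats, each point being the summed UMIs of 1 rat. CD4 T cells lie higher for Ctla4, Nrp1, Il6r and Cd28 and lower for Ccl5, Nkg7 and Prf1.

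For the diet, HFHF-old rats were compared with old rats. Of 4933 genes tested with edgeR none passed (0.0%), with 549 genes at an unadjusted p under 0.05 and 35 calls by DESeq2. Leaving out the 42 barcodes, 24 of 4453 genes passed (0.539%), 4 higher and 20 lower in HFHF-old rats. That fit also lost young rat 2, which then had 3 cells, so it used 5 rats. With all barcodes kept, a fit of the 2 groups alone gave 54 calls of 6374 genes. Leaving out young rat 2 but none of the barcodes also let genes pass, and more of them than with the 42 left out too. The rise from 0 thus occurred with no barcode removed, and the calls without the 42 barcodes cannot be credited to those barcodes alone. Diet values given below as without the 42 barcodes come from the fit of 5 rats. The genes below are those of smallest p or of the lists, and unless stated their difference did not pass in the whole gate.

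Lef1, a transcription factor of naive and early memory T cells, had 138, 169.6, 38.3, 15.4, 222 and 346 CPM. The old rats were the lowest 2 and the HFHF-old rats the highest 2, with group means of 26.9 ± 16.2 and 284 ± 88.2 CPM (SD, n = 2). Lef1 was detected in 5 of 27 and 5 of 112 cells in old rats and in 2 of 19 and 13 of 117 cells in HFHF-old rats. The share of cells was thus higher in old rat 1 than in both HFHF-old rats, and the level in HFHF-old rat 1 came from 2 cells. The log2 fold change for HFHF-old against old was 3.51 (SE 0.474, edgeR adjusted p = 0.115). It was 3.12 in the fit without the 42 barcodes and young rat 2, and passed there (edgeR adjusted p = 0.0031). In the naive list all 9 tested genes lay higher in HFHF-old rats, with a median log2 fold change of 0.85 against -0.01 over all genes tested, and none passed. Without the 42 barcodes 7 of 9 lay higher (median 0.69), and Lef1 passed. In CD8 T cells the naive list summed to 1684, 740, 893, 716, 1916 and 1641 CPM. Both HFHF-old rats lay above both old rats there, so this order was not particular to CD4 T cells.

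Dusp10, a phosphatase that switches off the p38 and JNK kinases, had 60.2, 21.2, 15.3, 18.5, 111 and 122 CPM (log2 fold change 2.65, edgeR adjusted p = 0.137, and 0.0225 without the 42 barcodes). Nr4a3, a nuclear receptor induced by T cell receptor signals, had 81.7, 0, 19.2, 123, 509.6 and 250.1 CPM (log2 fold change 2.12, edgeR adjusted p = 0.397, and 0.0299 without them). Cd28 had group means of 310.4 ± 59.6 CPM in old and 1113 ± 107 CPM in HFHF-old rats (log2 fold change 1.77, edgeR adjusted p = 0.203). In all 3 genes both HFHF-old rats were above both old rats. Genes named by smallest p were chosen among genes whose rats did not overlap, so for those this order is no separate result. How many of all tested genes had no overlap was not counted. The 8 tested helper genes and 9 of the 11 tested regulatory T genes were also higher, with medians of 0.62 and 1.27 on the log2 scale and no call, as were the 9 tested genes of the T cell receptor complex list outside the gate (median 0.69). These medians were lower without the 42 barcodes, at 0.17 for the helper list (6 of 8 higher), 0.81 for the regulatory T list (10 of 12) and 0.28 for the receptor list (7 of 9), again with no call. Genes of the dissociation response, which rises during tissue digestion, lay higher too, with no call: 12 of 13 were higher (median 0.91, and 10 of 13 with a median of 0.69 without the 42 barcodes), and their sum was 4256, 3052, 3717, 3841, 8220 and 7820 CPM. The part of the dissociation response in these differences was not tested. In CD8 T cells the helper list summed to 655, 367, 1191, 834, 1860 and 1824 CPM. The dissociation list summed there to 3992, 2353, 6099, 3859, 8217 and 7005 CPM. In both lists the HFHF-old rats lay above the old rats in CD8 T cells too, while the sums of the regulatory T and receptor lists overlapped.

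In the whole gate no MHC gene passed, and 6 of 6 tested genes of the MHC class II list had lower levels in HFHF-old than old rats (median log2 fold change -2.17). RT1-A1, a rat MHC class I gene, had 279, 106, 1222, 866, 236 and 243 CPM (log2 fold change -2.19, edgeR adjusted p = 0.146). Without the 42 barcodes it had 385, 238, 1518, 927, 249 and 253 CPM, and its log2 fold change of -2.43 passed (edgeR adjusted p = 0.0031). RT1-A1 belongs to a family of near-identical genes whose copies differ between rats, so its counts depend on which copy the reads match. In CD8 T cells it had 338, 176, 1255, 953, 225 and 279 CPM, again with both old rats above the other 4.

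Cd74, the invariant chain of MHC class II, had 2790.1, 5384, 3268, 3144, 1359 and 148 CPM in the whole gate and 30.8, 59.6, 2014, 492, 94.4 and 43.3 CPM without the 42 barcodes. In the whole gate young rat 2 lay above both old rats, while with these barcodes left out both young rats lay below them. For HFHF-old against old its log2 fold change was -2.21 (edgeR adjusted p = 0.363) and -4.49 without them (edgeR adjusted p = 0.0030), where all 5 tested MHC class II genes passed as lower (median -4.49 against -0.02 over all genes tested). The summed MHC class II level without them was 146, 119, 6920, 1310, 206 and 142 CPM, so most of the old mean came from old rat 1. In CD8 T cells the list summed to 1143, 220, 1678, 6056 and, in HFHF-old rats, 357 and 566 CPM, with old rat 2 the highest there. In the CD4 T cells without the 42 barcodes the macrophage list summed to 239, 29.8, 949, 325, 764 and 15.4 CPM. Csf1r, which the gate excludes, and Ms4a7 were at 0 there. The B cell list summed to at most 27.0 CPM with Ms4a1 at 0. The dendritic list summed to 15.41, 0, 100.44, 21.973, 0 and 5.7771 CPM, highest in old rat 1 and next in old rat 2, as for MHC class II. Siglech and Flt3 of the dendritic list and Spib of the B cell list were 0 by the choice of barcodes. Low sums of these lists therefore do not show that such cells were absent. Digestive enzyme genes summed to 1302, 2442, 21501, 5328, 12628 and 169 CPM, with the highest value in old rat 1. Islet hormone genes summed to 1133, 2680, 3086, 14071, 3509 and 8.67 CPM, highest in old rat 2 and lowest in HFHF-old rat 2. All 5 tested islet hormone genes lay lower in HFHF-old than old rats (median log2 fold change -6.13), and Gcg passed as lower with the MHC class II genes (log2 fold change -7.91, edgeR adjusted p = 0.0030). The part of RNA from other cells in these levels was not tested.

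For age, old rats were compared with young rats. None of 4933 genes passed with edgeR (0.0%), with 281 at an unadjusted p under 0.05 and 2 calls by DESeq2. Without the 42 barcodes 3 of 4453 passed (0.0674%), namely Tnfrsf9 and Ikzf2 lower and Cd74 higher in old rats. The young group was then young rat 1 alone, which the fit assumes to vary like the rats of the other groups, so these calls compare the old rats with 1 young rat. Faslg, the Fas ligand that triggers cell death in its targets, had 77.4, 42.4, 253, 328, 369 and 498 CPM (log2 fold change 2.32, SE 0.437, edgeR adjusted p = 0.274). Both young rats lay below both old rats, which was a condition for naming genes by smallest p. Ifng averaged 2.15 ± 3.04 CPM in young rats, 49.2 ± 4.55 CPM in old rats and 82.8 ± 18.7 CPM in HFHF-old rats (SD, n = 2), with an old against young edgeR adjusted p of 0.329.

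In the Th1 list 9 of 10 tested genes lay higher in old rats (median log2 fold change 1.08), as did 4 of 5 of the cytotoxic list (median 1.73), against a median of 0.01 over all genes tested, with no call in either list. Markers of other cells also lay higher in old rats, with no call in any of these lists, namely 4 of 4 tested islet hormone genes (median 1.67), 10 of 14 digestive enzyme genes (1.51), 3 of 3 fibroblast genes (2.00) and 5 of 5 macrophage genes (1.04). Their part in the Th1 and cytotoxic differences was not tested. In the regulatory T list 2 of 11 lay higher (median -0.51), and all 9 tested genes of the T cell receptor complex list did once the 3 CD3 genes of the gate were set aside (median 0.91), none of them called. Without the 42 barcodes, and so with 1 young rat, the medians were 0.92 for Th1, 1.10 for the cytotoxic list, -1.58 for regulatory T (1 of 12 higher) and 0.01 for the receptor list (6 of 9). The medians of the other cells' lists were then 3.42 for islet hormones (5 of 5 higher), 3.50 for digestive enzymes (15 of 15, 10 of them at an unadjusted p under 0.05), 1.76 for fibroblasts (4 of 4) and 2.75 for macrophages (4 of 5), with no call. Tnfrsf9 had 314, 28.3, 11.5, 27.7, 111 and 121 CPM, so the young level rested on young rat 1. Lef1 was lower in old than in young rats (log2 fold change -2.57, edgeR adjusted p = 0.274), with the values given above. RT1-A1 was higher in old rats (log2 fold change 2.49, edgeR adjusted p = 0.274).

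**Figure D5:**
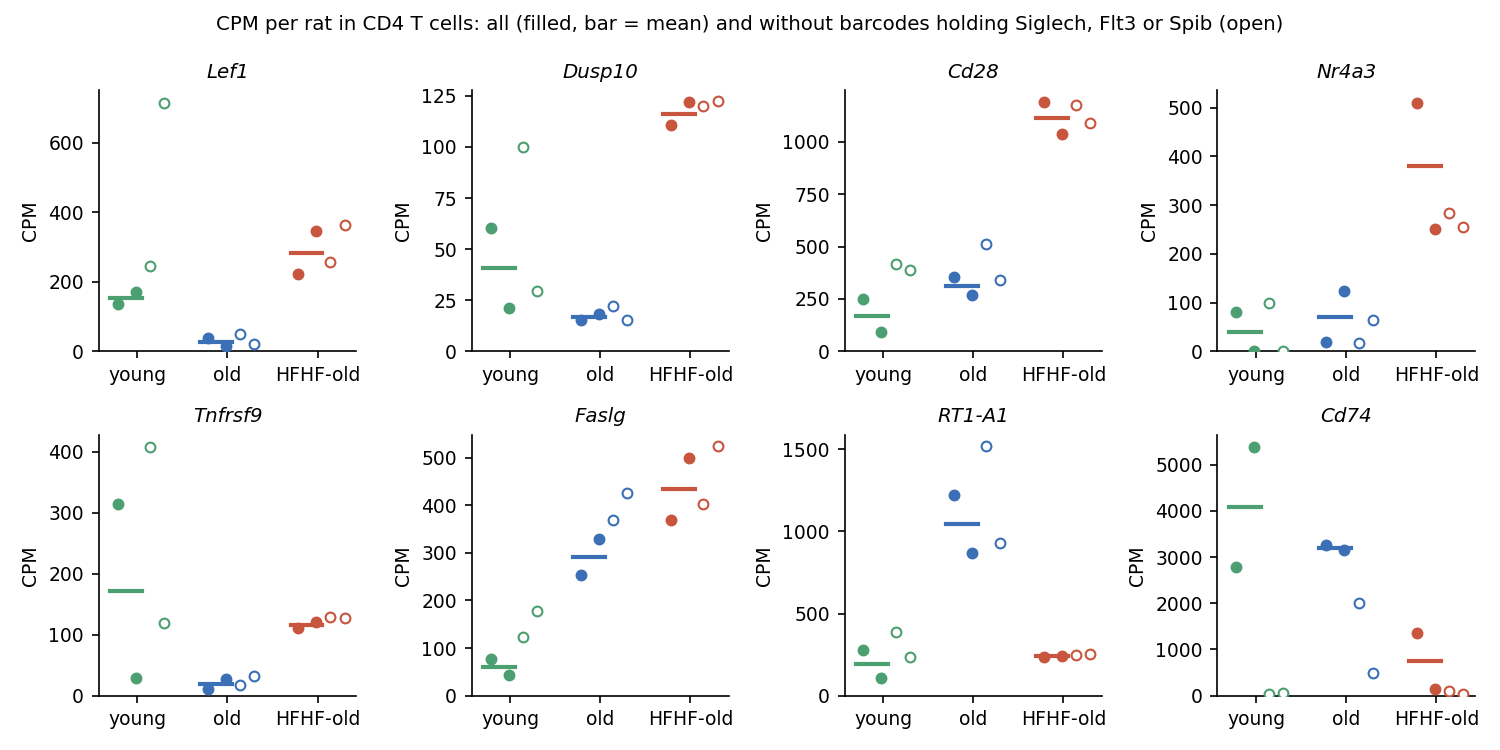
CPM of 8 genes in CD4 T cells of the 6 rats by group, with filled points for all cells and their group mean as a bar, and open points without the barcodes holding Siglech, Flt3 or Spib. The old rats are the lowest for Lef1 (38.3 and 15.4 CPM) and the highest for RT1-A1 (1222 and 866 CPM), and the open points of Cd74 in young rats lie far below the filled ones.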

How the data were processed

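The authors deposited UMI counts per gene and barcode for each of the 6 libraries (32883 genes). The submitters' processing notes name Cell Ranger and the Rnor_6.0 build, and the file headers give cellranger 5.0.0. Barcodes were gated on these counts. Cells of each rat were summed, normalised by TMM, filtered with filterByExpr and tested with edgeR 4.0.16 (glmQLFit and glmQLFTest, R 4.3.3) over all genes, requiring at least 10 cells per rat (5 per rat and class for Foxp3). A call needed a Benjamini-Hochberg adjusted p under 0.05 and a change over 1.5-fold. DESeq2 1.42.0 was an alternative. Shares were compared by exact permutation over rats (scipy 1.17.1), with 95% Clopper-Pearson intervals, and the limit for a count of 0 is 3 counts of the total.

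The members and gene lists were chosen with earlier results of these data known. Of 369 genes in 31 lists, 347 were in the table, and counts and medians of a list leave out genes of the gate. Named genes were list members, the 12 called genes of smallest p in each direction whose level in the higher arm was at least that of all other kept barcodes and, where under 5 were called, the 8 of smallest p whose rats did not overlap. Genes outside this rule were named after their values were seen. Replicate numbers did not pair the rats. On simulated counts with 200 genes changed by 2 on the log2 scale, the same steps recovered 56.5% of them for diet, 41.5% for age, 83.5% for Foxp3 and 99.5% for CD4 against CD8 T cells. A few results on single genes are not reported here.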

Additional observations from a re-analysis of the deposited data

How the results depend on the processing

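Counts of called genes depended on the cells and rats used. Without Siglech, Flt3 or Spib barcodes young rat 2 (3 cells) also left the group and CD8 fits. The 24 below thus holds 2 changes, and the 2 groups alone with all barcodes kept gave 54. Young rat 2 also left without cells of other lineages (7 cells) and with Cd3e or Cd3d required (3 cells). With at least 2 Cd4 UMIs both young rats (8 cells each) and HFHF-old rat 1 (6 cells) left. For HFHF-old against old (0 calls) they were 35 with DESeq2, 241 with no low-count filter, 313 with at least 2 Cd4 UMIs, 10 without cells holding markers of other lineages, 3 without likely doublets, 24 without Siglech, Flt3 or Spib barcodes, 54 with the 2 groups alone, 1 with the replicate block and 2 to 64 when 1 rat was left out (52 to 64 without a young rat or HFHF-old rat 1, 2 to 6 without the others). For old against young (0 calls) they were 2 with DESeq2, 96 with no filter, 3 without Siglech, Flt3 or Spib barcodes, 2 with a required UMI of Cd3e or Cd3d, 1 with the 2 groups alone and 0 to 10 when 1 rat was left out (10 without young rat 1), and at least 2 Cd4 UMIs could not be fitted. For CD4 against CD8 T cells (324) they were 974 with no filter and 150 to 346 without 1 rat (198 without young rat 1, 150 without old rat 1, 200 without old rat 2). For Foxp3-holding cells (94) they were 260 with no filter, 204 without likely doublets, 36 without the rat block and 2 to 163 without 1 rat (146 without young rat 1, 163 without HFHF-old rat 2). A minimum of 10 cells could not be fitted there.

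The replicate block cannot change a share difference, and with 2 pairs its p can only be 0.5 or 1, so it was no check of the shares. The deviations of same-numbered rats correlated at -0.0865, 0.0058 and 0.0201 over the 3 pairs of groups, so the numbers were not taken to pair the rats. Leaving out 1 rat gave HFHF-old minus old differences of -0.370 to 0.475 points in the share of kept barcodes, 2.13 to 16.0 in the CD4 share of CD4 and CD8 T cells and 0.345 to 7.12 in the Foxp3 share. For old minus young these ranges were 0.234 to 0.555, -11.2 to -8.86 and -9.41 to 3.09. Thinning to 1000 UMIs turned the diet difference in the share of kept barcodes to -0.0909, the age difference in the CD4 share of CD4 and CD8 T cells to 3.20 and that in the Foxp3 share to 1.25, with 1 and 0 CD4 T cells left in the 2 young rats and 3 to 40 in the others. The Foxp3 age difference was also above 0 with at least 2 Cd4 UMIs (3.27) and without likely doublets (1.02). The Foxp3 diet difference was -0.380 without Siglech, Flt3 or Spib barcodes but 1.80 with Cd3e or Cd3d required. Tubgcp5, a tubulin nucleation gene lower in old rats, had log2 fold changes above 0 without cells of other lineages (0.33), without Siglech, Flt3 or Spib barcodes (0.80) and with Cd3e or Cd3d required (0.63). The Siglech, Flt3 or Spib and the Cd3e or Cd3d alternatives were chosen after seeing the data. The cause of these changes was not tested. Of the other values of named genes across alternatives, 1039 kept their direction and side of the threshold, 124 came to pass it and 40 no longer passed. With 12 to 117 cells a rat, genes of few UMIs were mostly below the filter.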

Other observations

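Foxp3 was also found in T cells outside the CD4 gate. Of 1141 T cells with no UMI of Cd4, Cd8a or Cd8b, 58 held Foxp3 (5.08%), namely 3 of 101, 0 of 129, 5 of 75, 24 of 495, 6 of 49 and 20 of 292 in young rats 1 and 2, old rats 1 and 2 and HFHF-old rats 1 and 2. Of 460 T cells with UMIs of both Cd4 and Cd8 genes, 3 did (0.652%). More Foxp3-holding T cells thus lay outside the CD4 gate by lack of a Cd4 UMI (58) than inside it (39).

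Of the 311 CD4 T cells, 91 held none of Tbx21, Gata3, Bcl6 and Foxp3, 103 held 1 and 117 held several. The cells with several numbered 9 of 24, 1 of 12, 12 of 27, 18 of 112, 9 of 19 and 68 of 117 in the same order of rats, so that most came from HFHF-old rat 2. Foxp3 and Cd40lg were found together in 14 cells. Il10 was found in 3 CD4 T cells, and Il13 and Areg in none.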
